A study of Homo sapiens with 4 samples.

Results

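The MCM helicase family was followed in RNA-seq of HCT116 cells, an established human colorectal cancer line, transfected with an antisense oligonucleotide (ASO) directed at GAA repeats, the anti-GAA ASO, or with a control ASO. The members were the 9 rows of the count table, out of 63677 counted genes, whose Ensembl identifier carries the symbol MCM2, MCM3, MCM4, MCM5, MCM6, MCM7, MCM8, MCM9 or MCM10. There were 4 libraries, replicates 1 and 2 of each ASO, and no untreated library. The cells were otherwise unmodified, the labels give 48 h of transfection for all 4 libraries, and the study's methods speak of duplicate experiments without saying what a shared replicate number stands for, so the p-values measure only the spread between these libraries. The libraries held 10538284 to 17894953 reads on genes. The labelled cell type was checked on its markers, where the 7 epithelial genes summed to 2728 to 3100 CPM (read counts scaled to the size of the library) in each library and the 4 blood genes to 0.354 to 0.848 CPM, with CD3E at 0 counts in every library. Among 4 stromal and endothelial genes, COL1A1 (10.1 to 14.6 CPM) alone was tested, with COL1A2 and PECAM1 at 0 counts.

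MCM2 to MCM7 are related ATPases that form the ring-shaped core of the replicative helicase. In G1, ORC, CDC6 and CDT1 load the ring on DNA at replication origins, and in S phase CDC45 and the GINS complex join it to form the active helicase. MCM8 and MCM9 are relatives that work together in DNA repair by homologous recombination, and MCM10, which is no ATPase of this kind despite its name, helps to activate the loaded helicase. Because cells make most of these RNAs around the passage from G1 to S under the control of E2F factors, a bulk library cannot tell a smaller share of cells in that phase from less RNA per cell.

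The 21-nt anti-GAA ASO is complementary to a run of GAA triplets, and the members were therefore read for such runs in the GENCODE 44 transcripts on GRCh38. The stretches below are shown because they hold the longest uninterrupted runs of these members, 11 or 13 nt, or, for the canonical MCM3 transcript, the site that remains when the upstream start is not used. Each is the sense strand from 5′ to 3′, with the uninterrupted run in capitals.
MCM3, first exon of the longest transcript, chr6:52284852-52284881, minus strand: GAAGAAGAAGAAGcttttgattggacagtc
MCM3, coding sequence of the canonical transcript across the junction of exons 11 and 12, chr6:52272444-52273251, minus strand: tacatgggaccAAGAAGAAaaaggagaaga
MCM6, coding sequence across the junction of exons 15 and 16, chr2:135844671-135846252, minus strand: agaaaggtgGAAGAAGAAGAggacgagtca
MCM10, coding sequence in exon 9, chr10:13186230-13186259, plus strand: tgtaaagccAAGAAGAAGAAtggagagccg
MCM8, 3′ UTR in exon 19, chr20:5996720-5996749, plus strand: tacattttcAGAAGAAGAAGttccatgttt

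MCM3 was the only member whose longest transcript held 12 nt or more without interruption, and this run depended on which MCM3 transcript was read. The 13-nt run occupied the first 13 bases of the 5′ UTR of ENST00000616552.4 (chr6:52284869-52284881), ended 127 nt upstream of the start of the canonical transcript ENST00000596288.7, and was present in 3 of the 6 annotated MCM3 transcripts. The canonical MCM3 transcript held at most 8 nt in a row, and its best match to a perfect 21-nt GAA repeat was 17 of 21 bases. MCM2, MCM4 and MCM6 reached 16 bases in their canonical transcripts and the other members 13 to 15. Of the tested genes with a transcript sequence, 6.91% matched at 17 bases or more in the longest transcript. Gene-level counts add all MCM3 transcripts together, so the share of MCM3 reads that came from transcripts with the run was not measured.

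In MCM6, the 11-nt run is formed by splicing, since the gene body with introns held at most 9 nt. MCM10 and MCM4 held 11 nt in coding sequence, the latter in exon 6 of its canonical transcript on chromosome 8, and MCM8 held 11 nt in the 3′ UTR of 1 of its 5 transcripts. The longest runs of MCM2, MCM5, MCM7 and MCM9 measured 7 to 9 nt in their canonical transcripts. As background, 374 of the 14751 tested genes with a transcript sequence (2.54%) had 12 nt or more in the longest transcript, and 789 (5.35%) had 11 nt or more in the canonical one. In 354 of those 374 genes the canonical transcript held such a run as well, and MCM3 was among the other 20.

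**Figure D1:**
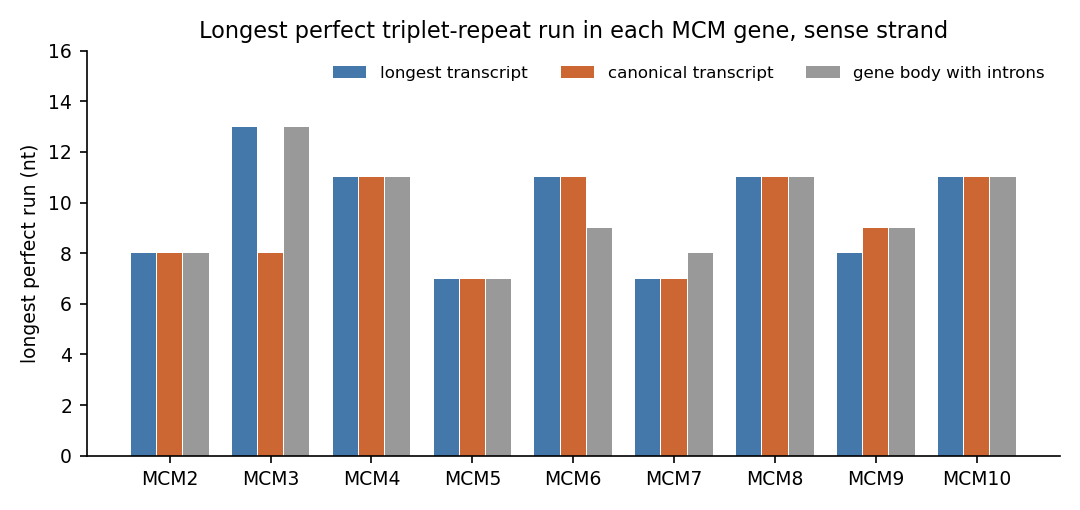
Longest perfect GAA run in nucleotides (vertical axis) for each MCM gene, read on the sense strand of the longest transcript (blue), the canonical transcript (orange) and the gene body with introns (grey). MCM3 reaches 13 nt in the longest transcript and 8 nt in the canonical one, and MCM6 falls from 11 nt in the spliced RNA to 9 nt in the gene body.

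All 9 members were expressed and tested. Levels were compared between members as TMM-normalized CPM per kilobase of the canonical transcript (CPM per kb). MCM7 was the most abundant, at 290.0 and 202.0 CPM per kb with the control ASO in replicates 1 and 2 and 393.9 and 237.5 with the anti-GAA ASO, and overlapped with no other member. MCM3 (60.5 to 70.1 CPM per kb over the 4 libraries) and MCM4 (52.8 to 65.3) followed, with MCM3 above MCM4 in 4 of 4 libraries although their ranges overlapped. MCM2 (29.9 to 53.2), MCM6 (35.8 to 43.3) and MCM5 (28.4 to 43.96) had ranges that overlapped widely, with MCM2 above MCM5 in 4 of 4 libraries and MCM6 above MCM5, and below MCM2, in 2 of 4. MCM10 lay below them at 16.3 to 21.1 CPM per kb, MCM8 at 3.03 to 4.87 and MCM9 at 1.51 to 1.81, each without overlap with the next. With the union of all exons as the length, an alternative chosen after the data had been seen, the order was kept except that MCM6 moved up to the third place and MCM4 down to the fifth, because the annotated exons of MCM4 sum to 9852 nt against 4062 nt in its canonical transcript.

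**Figure D2:**
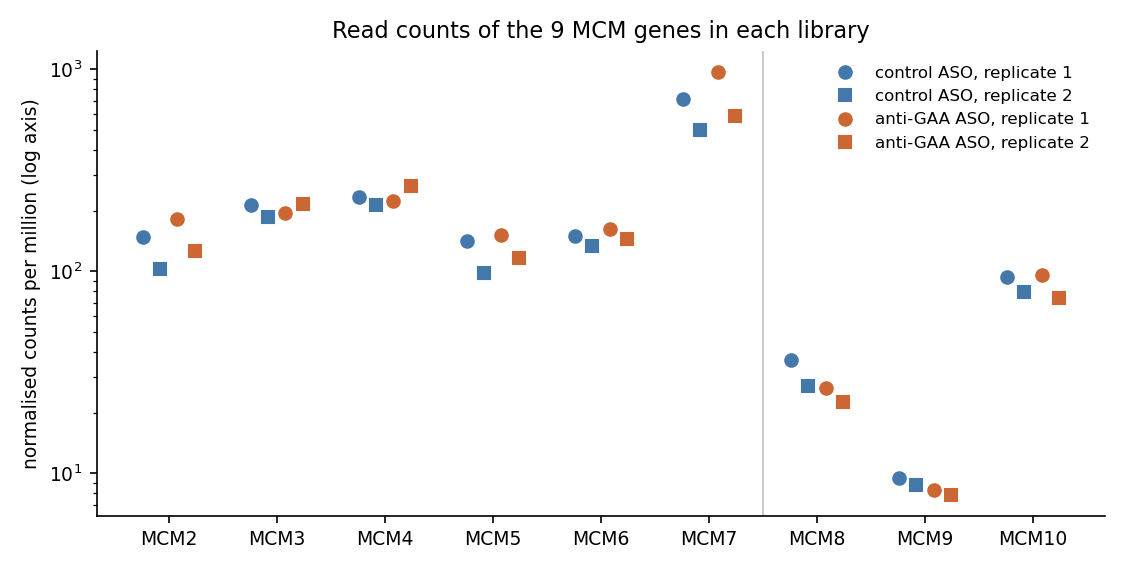
TMM-normalized CPM (vertical, log axis) of each MCM gene in the 4 libraries, with control ASO in blue, anti-GAA ASO in orange, replicate 1 as circles and replicate 2 as squares. MCM7 runs from 498.3 to 971.8 CPM and MCM9 from 7.87 to 9.46 CPM. In every member except MCM3 and MCM4 the circles lie above the squares under both ASOs.

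The anti-GAA ASO was compared with the control ASO to ask whether RNA of the helicase subunits moved when RNAs with GAA repeats were targeted. In edgeR's quasi-likelihood test no member had an adjusted p under 0.05, against 0.0% of the 15116 tested genes, and no member had an unadjusted p under 0.05, against 4.48% of tested genes. DESeq2 called 3 genes (HCLS1, IFFO1 and EIF5B, named here after their values had been seen) and no member. The estimates nevertheless lay on both sides of 0, with all 6 of MCM2 to MCM7 above it (5 of 6 when libraries were scaled to total counts, where MCM3 was at −0.050) and MCM8, MCM9 and MCM10 below it under each scaling. Of all tested genes, 7802 were above 0 and 7314 below, or 5894 and 9222 when scaled to total counts. The median log2 fold change (anti-GAA over control) was 0.15 for MCM2 to MCM7, −0.18 for MCM8, MCM9 and MCM10, and 0.01 for all tested genes. These medians describe 6 and 3 genes and carry no test.

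MCM7, which with MCM4 and MCM6 forms a subcomplex that can unwind DNA in vitro, had 715.5 and 498.3 CPM with the control ASO and 971.8 and 586.0 CPM with the anti-GAA ASO in replicates 1 and 2. The groups overlapped, since the anti-GAA library of replicate 2 lay below the control library of replicate 1. The log2 fold change was 0.36 (SE 0.30, 95% interval −0.36 to 1.08, n = 2 per group, edgeR adjusted p = 0.996), smaller than the differences between replicates 1 and 2 on the log2 CPM scale, which were 0.73 under the anti-GAA and 0.52 under the control ASO.

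MCM2, the subunit with a histone-binding tail, had 147.4 and 102.6 CPM with the control ASO and 182.6 and 125.6 CPM with the anti-GAA ASO. It overlapped in the same manner as MCM7. Its log2 fold change was 0.30 (SE 0.27, 95% interval −0.35 to 0.95, edgeR adjusted p = 0.996), and within the replicate numbers it was 0.31 and 0.29 higher with the anti-GAA ASO on the log2 CPM scale. Replicate 1 exceeded replicate 2 by 0.54 and 0.52, so the replicate number separated the MCM2 values more than the ASO did.

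MCM5, which forms the gate of the ring together with MCM2, had 141.3 and 98.2 CPM with the control ASO and 152.0 and 116.3 CPM with the anti-GAA ASO. Its groups overlapped as well, with a log2 fold change of 0.16 (SE 0.25, edgeR adjusted p = 0.996). For MCM6, the control libraries had 149.3 and 134.2 CPM and the anti-GAA libraries 162.5 and 145.0 CPM, with a log2 fold change of 0.12 (SE 0.19, edgeR adjusted p = 0.996) and the smallest spread between replicate numbers among the genes of the ring that shifted the same way in both pairs (0.16 and 0.15 on the log2 CPM scale). MCM2, MCM5, MCM6 and MCM7 were thus higher in both replicate numbers, as were 31.8% of all tested genes.

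MCM4, the subunit whose tail is phosphorylated when the helicase is activated, had 233.3 and 214.3 CPM with the control ASO and 223.7 and 265.4 CPM with the anti-GAA ASO. The difference changed sign between the replicate numbers, at −0.06 in the first and 0.31 in the second on the log2 CPM scale, and the log2 fold change was 0.13 (SE 0.20, edgeR adjusted p = 0.996).

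MCM3, the carrier of the 13-nt run shown above, had 213.7 and 185.7 CPM with the control ASO and 195.6 and 214.9 CPM with the anti-GAA ASO. The difference was −0.13 in replicate 1 and 0.21 in replicate 2 on the log2 CPM scale. The log2 fold change of 0.04 (SE 0.19, edgeR adjusted p = 0.996) had a 95% interval from −0.42 to 0.50, that is, a fold between 0.748 and 1.41. A loss of MCM3 RNA below that lower bound lay outside the interval of this fit, while smaller losses lay inside it. With the replicate number as a block in edgeR, the estimate was 0.04 with a smaller SE of 0.14. Relative to the median of the other 5 ring subunits in the same library, which removes the scaling of the library, MCM3 stood at 1.62 and 1.69 with the control ASO and at 1.20 and 1.81 with the anti-GAA ASO on the CPM per kb scale, in opposite directions in the 2 replicate numbers. Relative to the mean of the same 5 subunits, to which MCM7 contributes most, it stood at 0.739 and 0.868 with the control ASO and at 0.541 and 0.851 with the anti-GAA ASO, lower in both. For comparison, the median log2 fold change was −0.17 over the 354 tested genes whose longest and canonical transcripts both held 12 nt or more. It was −0.06 over the 20 genes that, like MCM3, held such a run in the longest but not in the canonical transcript. Over the 14377 genes without it in the longest transcript, the median was 0.02.

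**Figure D3:**
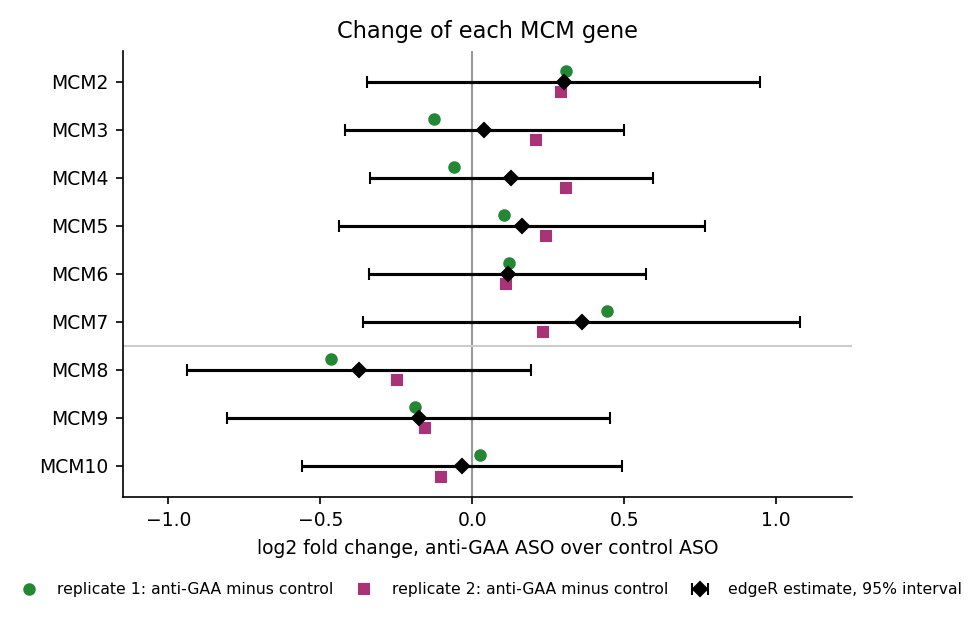
Log2 fold change of anti-GAA over control ASO (horizontal axis) for each MCM gene, with edgeR's estimate and 95% interval in black and the difference in log2 CPM within replicate 1 (green circles) and replicate 2 (purple squares). Every interval spans 0, and MCM3, MCM4 and MCM10 have their replicate numbers on opposite sides of 0.

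MCM8 had 36.5 and 27.0 CPM with the control ASO and 26.4 and 22.7 CPM with the anti-GAA ASO in replicates 1 and 2, from 261 to 559 reads per library. Both anti-GAA libraries lay below both control libraries, which also held for MCM9 and for 16.9% of all tested genes. The log2 fold change of MCM8 was −0.37 (SE 0.24, 95% interval −0.94 to 0.19, edgeR adjusted p = 0.996), the lowest of the family and lower than that of all but 15.96% of tested genes. Within the replicate numbers it was −0.47 and −0.25 on the log2 CPM scale.

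MCM9, the partner of MCM8, had 9.46 and 8.79 CPM with the control ASO and 8.28 and 7.87 CPM with the anti-GAA ASO, from only 82 to 149 reads per library. Its log2 fold change was −0.18 (SE 0.27, edgeR adjusted p = 0.996). The difference was −0.19 and −0.16 in the replicate numbers, and MCM8 and MCM9 were the 2 members lower in both, as were 30% of tested genes. The ratio of MCM8 to MCM9 on the CPM per kb scale was 2.69 and 2.14 with the control ASO and 2.22 and 2.01 with the anti-GAA ASO. HROB, which recruits the MCM8 and MCM9 complex to sites of repair, had a log2 fold change of −0.12 (SE 0.30), with opposite signs in the replicate numbers (0.10 and −0.40 on the log2 CPM scale).

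MCM10, which was more abundant than MCM8 and MCM9, had 94.3 and 79.4 CPM with the control ASO and 95.9 and 74.0 CPM with the anti-GAA ASO, with overlapping groups and a log2 fold change of −0.03 (SE 0.22, edgeR adjusted p = 0.996). Replicate 1 again exceeded replicate 2, by 0.37 under the anti-GAA and 0.25 under the control ASO on the log2 CPM scale.

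**Figure D4:**
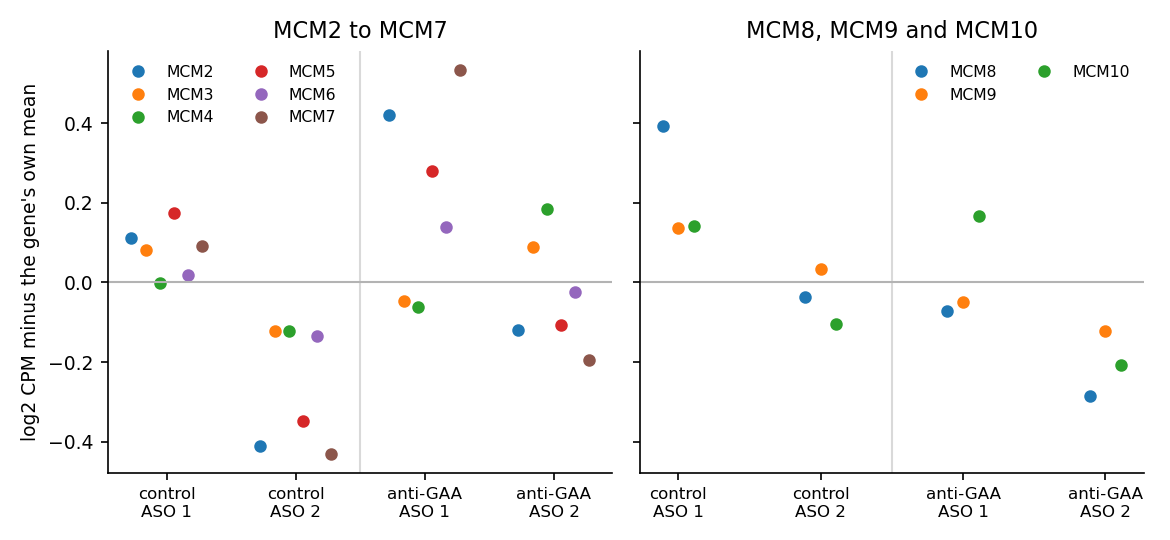
Log2 CPM of each MCM gene minus its own mean over the 4 libraries (vertical axis), for MCM2 to MCM7 on the left and MCM8, MCM9 and MCM10 on the right. MCM2, MCM5, MCM6 and MCM7 are lowest in replicate 2 of the control ASO and highest in replicate 1 of the anti-GAA ASO, while MCM8 is highest in replicate 1 of the control ASO and lowest in replicate 2 of the anti-GAA ASO.

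MCM2 to MCM7 and the other members were then set against each other inside each library, a difference that does not depend on how libraries are scaled. The mean log2 CPM of MCM2 to MCM7 exceeded that of MCM8, MCM9 and MCM10 by 2.77 and 2.69 with the control ASO and by 3.11 and 3.09 with the anti-GAA ASO. The anti-GAA values lay above both control values, with a gap between ASOs of 0.34 in replicate 1 and 0.40 in replicate 2 and a gap between replicate numbers of 0.08 and 0.02. How often other sets of genes separate the ASOs in this way was not measured. Of single tested genes, 15.5% lay without overlap above and 16.9% below with the anti-GAA ASO. When each member was left out in turn, which was done after the data had been seen, the gap between ASOs ran from 0.21 to 0.46 in replicate 1 and from 0.36 to 0.44 in replicate 2. It was smallest without MCM8 (0.21 and 0.36) and largest without MCM10 (0.46 and 0.44). All members were read in the same libraries, so leaving out members does not show whether the gap would recur in other libraries. No p was computed for this difference over the members, and with 2 libraries per group an exact permutation test could not go below 0.333.

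The 6 ring subunits took 1599 and 1313 CPM of the library total with the control ASO and 1773 and 1445 with the anti-GAA ASO, and MCM8, MCM9 and MCM10 took 140.1 and 122.7 against 122.6 and 103.9. Within the ring, MCM7 made up 53.6% and 49.3% of the summed CPM per kb with the control ASO and 60.3% and 49.3% with the anti-GAA ASO, whereas MCM3 made up 12.9% and 14.8% against 9.76% and 14.5%. The anti-GAA library of replicate 1, the shallowest of the 4, stood apart in both shares. The part of its depth in these values was not tested.

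With the replicate number as a block in edgeR, 1.71% of tested genes were called at an adjusted p under 0.05 and no member was. MCM2, MCM7 and MCM8 were among the 16.6% of tested genes under an unadjusted 0.05 in that fit, and edgeR gave them an adjusted p = 0.282, 0.276 and 0.273. The direction of several members rested on single libraries. MCM7 went from 0.36 to −0.044 on the log2 fold change scale when the anti-GAA library of replicate 1 was left out and to 0.68 when that of replicate 2 was, and MCM3, MCM5 and MCM10 also changed sign when one library was left out. MCM2, MCM4, MCM6, MCM8 and MCM9 kept their sign in all 10 alternative fits, though not their size. With the anti-GAA library of replicate 1 or 2 left out, the MCM2 estimate was 0.014 or 0.55, and with the control library of replicate 1 or 2 left out, it was at 0.58 or 0.072. MCM4 reached as little as 0.0028, and MCM8 lay between −0.56 and −0.15.

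**Figure D5:**
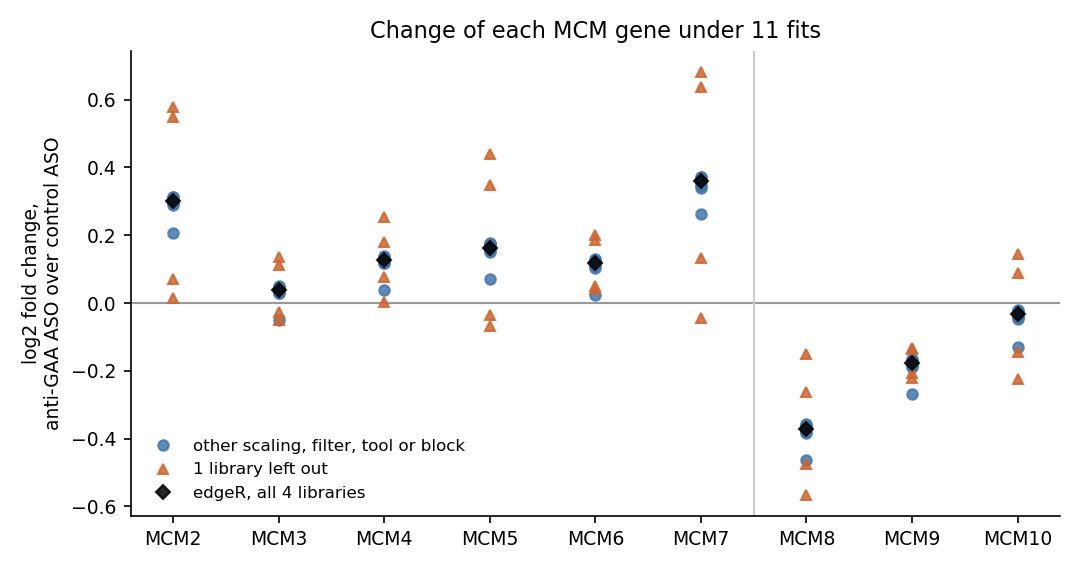
Log2 fold change of anti-GAA over control ASO (vertical axis) of each MCM gene under 11 fits, with edgeR on all 4 libraries in black, other scalings, filters, tools or the block in blue and fits without 1 library in orange. The orange points of MCM7 run from −0.044 to 0.68, and MCM8 and MCM9 stay below 0 in every fit.

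The genes that load, activate, unload or modify the helicase, together with HROB and MCMDC2, were read as a list of 25, all of them tested. None passed an adjusted or unadjusted p of 0.05 in edgeR without the block, and with it none was called and TOPBP1 alone was under an unadjusted 0.05 (edgeR adjusted p = 0.173). Of the 25, 17 had a log2 fold change above 0 and 8 below (13 and 12 when scaled to total counts), and the median was 0.11 against 0.01 for all tested genes. Of the 9 loading genes (ORC1 to ORC6, CDC6, CDT1 and the CDT1 inhibitor GMNN), 8 were above 0 (7 when scaled to total counts), with a median of 0.14 and a highest value of 0.23 for ORC2. The 12 activation genes had a median of 0.07, or −0.02 when scaled to total counts. The lowest of the list were TOPBP1, a scaffold for helicase activation, at −0.40 (SE 0.22) and MCM3AP at −0.27 (SE 0.33), and the highest were MCMDC2, a relative with a role in meiosis, at 0.67 (SE 0.48) and the GINS subunit GINS4 at 0.64 (SE 0.42). MCMDC2 and GINS4 were covered by 12 to 47 reads per library, and GINS4 had 2.54 and 1.83 CPM with the control ASO and 4.24 and 2.64 CPM with the anti-GAA ASO. MCMBP, which binds MCM subunits off the chromatin, had 266.3 and 255.3 CPM with the control ASO and 225.2 and 237.4 CPM with the anti-GAA ASO. Its log2 fold change was −0.17 (SE 0.18, edgeR adjusted p = 0.996). Both anti-GAA libraries lay below both control libraries, which held for 16.9% of all tested genes, with the reverse in 15.5%. ORC1, ORC3, GMNN, GINS1, GINS4, DONSON and MCMDC2 were the genes of the list with both anti-GAA libraries above both control libraries. Besides MCMBP, CDC45, TOPBP1 and MCM3AP were those with both below.

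Other genes of the G1/S programme driven by E2F factors were read in the same way, as a list of 23 that shares GMNN with the one above. UHRF1 could not be matched by identifier, and none of the 22 tested genes passed an adjusted or unadjusted p of 0.05 in edgeR without the block, with 16 above 0, 6 below and a median log2 fold change of 0.08, or 11, 11 and −0.01 when scaled to total counts. E2F1 (−0.30, SE 0.26) and CLSPN (−0.26, SE 0.65) were lowest, and the ribonucleotide reductase subunit RRM1 (0.30, SE 0.19) and thymidine kinase TK1 (0.24, SE 0.21) were highest. With the block, none was called and CLSPN and RRM1 were under an unadjusted 0.05 in edgeR, with a smallest adjusted p = 0.293. CLSPN had 53.2 and 10.96 CPM in the 2 anti-GAA libraries, a spread between replicates larger than any between ASOs. MCM2 to MCM7, at a median of 0.15, thus stood above this list by less than the difference between the medians of MCM2 to MCM7 in replicate 1 (0.11) and replicate 2 (0.24).

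RefSeq promoters (GRCh38.p14, 250 bases before to 50 after the start) of 7 members were searched on both strands for 4 words of the E2F type, TTTGGCGC, TTTGCCGC, TTTCGCGC and TTTCCCGC, with overlapping matches counted. At least 1 word was found in 5 of the 7, namely MCM2, MCM3, MCM6, MCM7 and MCM8, and in 3.99% of 27305 gene symbols with a promoter of this length. MCM6 held 4 matches, MCM2, MCM3 and MCM7 held 2 each, MCM8 held 1, and MCM9 and MCM10 held none of these words. MCM4 and MCM5 had no promoter of this length in the set searched. The windows below show the stretch around the first match in the promoters of MCM2, MCM6, MCM3 and MCM8, with the words in capitals. In MCM2 and MCM6, words on both strands overlap there. The remaining matches of MCM6 and MCM3 lie outside their windows.
MCM2, chr3:127598402-127598431, plus strand: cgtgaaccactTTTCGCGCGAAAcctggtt
MCM6, chr2:135876577-135876606, minus strand: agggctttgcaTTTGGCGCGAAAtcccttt
MCM3, chr6:52284898-52284927, minus strand: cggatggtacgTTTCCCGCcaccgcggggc
MCM8, chr20:5950667-5950696, plus strand: ggatcactgaaGCGCCAAAaaagaatttag
The genes with a word included both MCM7, with the highest log2 fold change of the family, and MCM8, with the lowest.

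Several members share their start with another gene or overlap one. MCM4 and PRKDC, the catalytic subunit of a DNA repair kinase, start 7 nt apart on opposite strands of chromosome 8. PRKDC had 92.0 and 107.2 CPM with the control ASO and 81.7 and 83.6 CPM with the anti-GAA ASO. These groups did not overlap, and 16.9% of all tested genes lay lower with the anti-GAA ASO in that manner. The log2 fold change of PRKDC was −0.27 (SE 0.19, edgeR adjusted p = 0.996), while MCM4 was at 0.13. MCM2 and TPRA1 start 143 nt apart and had 0.30 and 0.21 (SE 0.31), and MCM8 and TRMT6 start 94 nt apart and had −0.37 and −0.04 (SE 0.31). AP4M1 shares 392 nt of exon sequence with MCM7 on the other strand, and ASF1A, a histone chaperone, shares 205 nt with MCM9. Of the other genes with overlapping exons, ENSG00000253194, a non-coding RNA gene sharing 100 nt with MCM9, had 0 counts in all 4 libraries, and ENSG00000286235, which shares 2564 nt with MCM8 on the same strand, and ENSG00000285600, which shares 1113 nt with MCM2 on the other, were not among the rows analysed here. Whether reads were counted by strand is not given in the sources used here, so reads shared across strands could belong to either gene. For MCM8 and ENSG00000286235, which lie on the same strand, counting by strand could not separate the shared reads. AP4M1 had 8.18 to 10.04 CPM, far below MCM7, whereas ASF1A had 58.9 to 84.6 CPM, above MCM9 in every library, and its log2 fold change of 0.18 (SE 0.23) lay on the other side of 0 from MCM9. The microRNA genes MIR25, MIR93 and MIR106B inside MCM7 had 0 counts in all 4 libraries.

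Among 8886 other tested genes averaging 10 CPM or more, those nearest to the mean profile of MCM2 to MCM7 over the 4 libraries were the chaperonin subunit CCT2 (root mean square difference 0.003 on the log2 scale), FKBP2 (0.010) and CCNO (0.011). CCT2 had 1166 and 915.5 CPM with the control ASO and 1274 and 1078 CPM with the anti-GAA ASO. All 3 lay nearer to that mean than any of the 6 subunits themselves, which were 0.08 to 0.20 away from it, with MCM6 nearest and MCM7 farthest. With 4 libraries and many candidates, such closeness is a description of these libraries only.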

How the data were processed

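HCT116 cells transfected with anti-GAA or control ASO (n = 2 libraries each) were sequenced. The authors aligned the reads with STAR to hg19 and counted them per Ensembl gene with featureCounts, and the deposited values are raw counts without normalization. The methods name a stranded mRNA kit and a shorter transfection than the labels, which name a total RNA kit. The Ensembl release, strand setting and treatment of reads that match several genes are not given in the sources used here. No column with values per sample was left unused. The members and gene lists were chosen with earlier results of these data known. The 15116 genes that passed filterByExpr were scaled by TMM and compared in R 4.3.3 with edgeR 4.0.16 (quasi-likelihood F-test, ASO as the only term, Benjamini-Hochberg adjustment over all tested genes, threshold 0.05). The procedure was run on simulated counts that held no effect of the replicate number, so that run does not cover such an effect. Values within a replicate number are differences of log2 CPM with a prior count of 2. Positions and transcripts came from GENCODE 44 on GRCh38 through Ensembl identifiers (52181 of 63677 matched), and no position was carried over from hg19. The text names all 9 members, the 2 lowest and 2 highest genes of each list, neighbours that share a start or overlap a member, and the 3 genes nearest in profile. MCMBP, HROB, ORC2 and the helicase partners named for a lack of overlap were chosen for mention with their values known. Alternatives were DESeq2 1.42.0, edgeR with DESeq2's size factors, with total-count scaling, without a filter or with a filter at a mean of 1 CPM, the replicate block, leaving out each library, an unadjusted p, TMM-scaled shares, and other transcripts for the GAA runs, of which the canonical transcript was added after the data had been seen.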

Additional observations from a re-analysis of the deposited data

How the results depend on the processing

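No MCM member was called at an adjusted p under 0.05 in any of the 10 alternative fits or at an unadjusted p under 0.05 in the fit reported, while the count over all genes, 0 in that fit, was 3 with DESeq2, 116 without a filter, 258 with the replicate block, 0 to 18 with 1 library left out and 677 at an unadjusted p under 0.05. Replicate 1 of the control ASO (18 without it) and replicate 2 of the anti-GAA ASO (5 without it) decided the counts above 0. Scaling to total counts moved the median log2 fold change to 0.055 for MCM2 to MCM7, −0.27 for MCM8, MCM9 and MCM10, 0.023 for the helicase partners and −0.0072 for the G1/S list, as it moved that of all genes from 0.01 to −0.08, and left the difference between MCM2 to MCM7 and the other members at 0.32. With 1 library left out, which leaves an ASO with a lone library assumed to vary like the others, the medians ran from 0.028 to 0.31 for MCM2 to MCM7, −0.22 to −0.13 for MCM8, MCM9 and MCM10, 0.056 to 0.15 for the partners and 0.056 to 0.13 for the G1/S list, and the difference between MCM2 to MCM7 and the other members from 0.25 to 0.45. The G1/S median was 0.097 with DESeq2 and 0.073 without a filter, against 0.085 in the fit reported. These moves exceeded the standard deviation between its medians in replicates 1 and 2 (0.011), but not the difference between those medians (0.034 and 0.049). Of 90 member estimates in these fits, 82 kept their sign. MCM3 was at −0.050 with scaling to total counts. Leaving out 1 library turned the sign of MCM3 (range −0.050 to 0.14), MCM5 (−0.067 to 0.44), MCM7 (−0.044 to 0.68) and MCM10 (−0.22 to 0.15). MCM3 was below 0 without replicate 2 of either ASO, MCM5 without replicate 1 of the anti-GAA or replicate 2 of the control ASO, and MCM7 without replicate 1 of the anti-GAA ASO, while MCM10 was above 0 without replicate 2 of the anti-GAA or replicate 1 of the control ASO. The cause was not tested.

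The replicate numbers are shared by the ASOs, but the labels do not say what they mark. They were therefore not a term of the fit reported. Deviations from the group means correlated across genes at r = 0.564 between libraries of the same number, where genes are not independent replicates, and the common dispersion was 0.0549 without and 0.0148 with the replicate block. The block left the medians at 0.15 and −0.17 for MCM2 to MCM7 and for the other members, and changed no call of a member. TMM scaling moved the CPM summed over MCM2 to MCM7 to between 1233 and 1888, by less than the spread between replicates. The longest GAA run changed with the sequence read in MCM3, MCM6, MCM7 and MCM9. MCM9 rested on the fewest reads of the family, 82 to 149 per library.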
